A study of Mus musculus with 6 samples.

Results

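Endothelial identity genes are the genes by which the cells lining blood and lymph vessels are told from the other cells of a tissue. A list of 42 such genes was followed here, each found by its symbol in the deposited table of mouse heart expression. Of these, 40 were among the 16229 genes of the table, and Cav1 and Ecscr were not analysed here. All 40 passed the filter on low values (a mean of at least 0 log2 CPM over the 6 libraries), as did 12981 genes of the table. CPM is a gene's reads scaled to a fixed library size, and every level below is a log2 CPM unless another scale is named.

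The hearts came from male wild-type C57BL/6 mice, a common inbred laboratory strain, aged 8 to 10 weeks. The tissue is described as infarcted heart with its surroundings, and the series is about ischemia-reperfusion, the loss and return of the heart's blood supply. Whether untreated mice were operated on is not stated. Rivaroxaban, an inhibitor of coagulation factor Xa, was given at 3 mg/kg for 7 days (2 libraries, replicates 14 and 15). Dabigatran, an inhibitor of factor IIa (thrombin), was given at 10 mg/kg for 7 days (2 libraries, replicates 10 and 12). Untreated mice gave 2 libraries, replicates 8 and 9, which served both drug comparisons. Each drug was given at 1 dose, and the doses differ. Nothing states that replicates are separate mice, and each p-value therefore speaks of the spread among these libraries, which may be technical.

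The endothelium forms the inner surface of vessels and is held together by adherens and tight junctions. Its identity is kept by transcription factors of the ETS and SOX families, and its receptors read signals such as angiopoietins and sphingosine 1-phosphate. In heart muscle most endothelial cells belong to capillaries, which pass fatty acids and glycerol from blood to cardiomyocytes. Lymphatic vessels carry a related endothelium with its own markers.

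Reads were worked back from the deposited values. Summed over the genes of the table, they came to an estimated 27176892 to 43798222 per library. Members were covered by between 194 reads (the lowest library of Plvap) and about 29177 reads (the highest of Aqp1). Heart muscle markers fitted the tissue label: per length, Myh6, the main myosin heavy chain of the adult mouse heart, averaged 5649 RPKM (CPM per kilobase of exon). On the same scale the members ran from 208.3 for the water channel Aqp1 and 121 for the fatty acid binding protein Fabp4 to 3.66 for Vwf and 2.91 for Nos3. The junction genes Cdh5 and Pecam1 averaged 73.7 and 36.4, against 2.91 for the median gene of the table. All 40 members thus had reads in every library.

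RefSeq start sites on GRCm38.p6, the assembly that mm10 stands for, were matched by symbol for 19 of the 40 members, in 27 windows that run from 250 bases before to 50 after a start. The letters AGGAAG, or CTTCCT on the other strand, a core that ETS factors such as Erg, Fli1 and Ets1 can bind, stood in 14 of 27 member windows (51.85%) and in 35.35% of all 32851 windows. The SOX-type letters AACAAT (or ATTGTT) stood in 14.81% of member windows and 10.72% of all. The KLF-type letters GGGTGTGG (or CCACACCC) stood in 7.41% and 3.56%. None of these words contains another. A match is a description of letters, not a binding site. Of the 10 members called below, 7 had a window, and S1pr1, Gpihbp1 and Tcf15 had none. RefSeq starts can differ from the GENCODE gene positions given below. The Aqp1 window ends before that gene's GENCODE start, and the Apold1 window lies within the GENCODE gene. The 4 windows below belong to Apold1 and Rgcc, risers described later, to Aqp1, the member with the highest level per length, and to Emcn, which fell with rivaroxaban, and each is written 5′ to 3′ on its gene's strand with the ETS-type letters in capitals.
Apold1, chr6:134981751-134982050, plus strand: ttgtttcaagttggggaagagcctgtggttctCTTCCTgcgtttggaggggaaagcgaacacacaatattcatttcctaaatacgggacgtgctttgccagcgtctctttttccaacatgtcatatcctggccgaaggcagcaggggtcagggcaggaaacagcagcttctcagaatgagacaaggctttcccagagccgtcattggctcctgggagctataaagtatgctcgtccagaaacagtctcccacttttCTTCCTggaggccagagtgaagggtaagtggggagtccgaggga
Rgcc, chr14:79301586-79301885, minus strand: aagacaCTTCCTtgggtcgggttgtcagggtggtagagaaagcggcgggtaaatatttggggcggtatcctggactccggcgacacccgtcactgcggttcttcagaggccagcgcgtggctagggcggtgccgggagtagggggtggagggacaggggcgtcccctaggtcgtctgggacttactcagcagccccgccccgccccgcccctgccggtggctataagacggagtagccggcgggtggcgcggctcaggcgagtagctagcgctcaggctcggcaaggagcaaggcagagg
Aqp1, chr6:55336049-55336348, plus strand: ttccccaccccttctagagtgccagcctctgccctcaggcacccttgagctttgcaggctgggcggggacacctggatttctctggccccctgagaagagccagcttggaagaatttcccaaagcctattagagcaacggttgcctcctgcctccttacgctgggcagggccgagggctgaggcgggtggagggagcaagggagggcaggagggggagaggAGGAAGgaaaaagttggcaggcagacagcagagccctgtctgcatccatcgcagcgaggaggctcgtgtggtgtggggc
Emcn, chr3:137340828-137341127, plus strand: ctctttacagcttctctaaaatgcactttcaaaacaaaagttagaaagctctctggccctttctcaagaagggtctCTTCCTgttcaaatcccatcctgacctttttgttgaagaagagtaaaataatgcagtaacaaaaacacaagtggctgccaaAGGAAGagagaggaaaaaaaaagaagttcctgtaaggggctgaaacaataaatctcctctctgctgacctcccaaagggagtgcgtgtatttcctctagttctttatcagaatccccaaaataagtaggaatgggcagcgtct
Apold1 and Emcn carry 2 ETS-type words each in these windows, and Rgcc and Aqp1 1 each.

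With rivaroxaban, 4 members rose (S1pr1, Gpihbp1, Apold1 and Robo4), 2 fell (Tcf15 and Emcn) and 34 did not pass a limma adjusted p of 0.05 over all tested genes. These 6 are 15% of the members, where 2.46% of all tested genes were called, 1.47% higher and 0.986% lower. With dabigatran, 7 members rose (S1pr1, Gpihbp1, Apold1, Rgcc, Rhoj, Aqp1 and Adgrl4), none fell and 33 did not pass. These 7 are 17.5% of the members, where 1.88% of all tested genes were called, 1.38% higher and 0.501% lower. Both shares describe members chosen with earlier results of these data known, and were not tested. S1pr1, Gpihbp1 and Apold1 were called with both drugs, which share their untreated libraries. The genes by which endothelium is usually defined, Pecam1, Cdh5, Tie1 and Tek, had log2 differences between -0.05 and 0.14 from untreated hearts, and none of them passed. The median log2 difference of the 40 members was 0.09 with rivaroxaban and 0.08 with dabigatran, against 0.01 and 0.00 over all tested genes. In whole hearts, fewer cells of a type and less RNA per cell cannot be told apart.

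**Figure D1:**
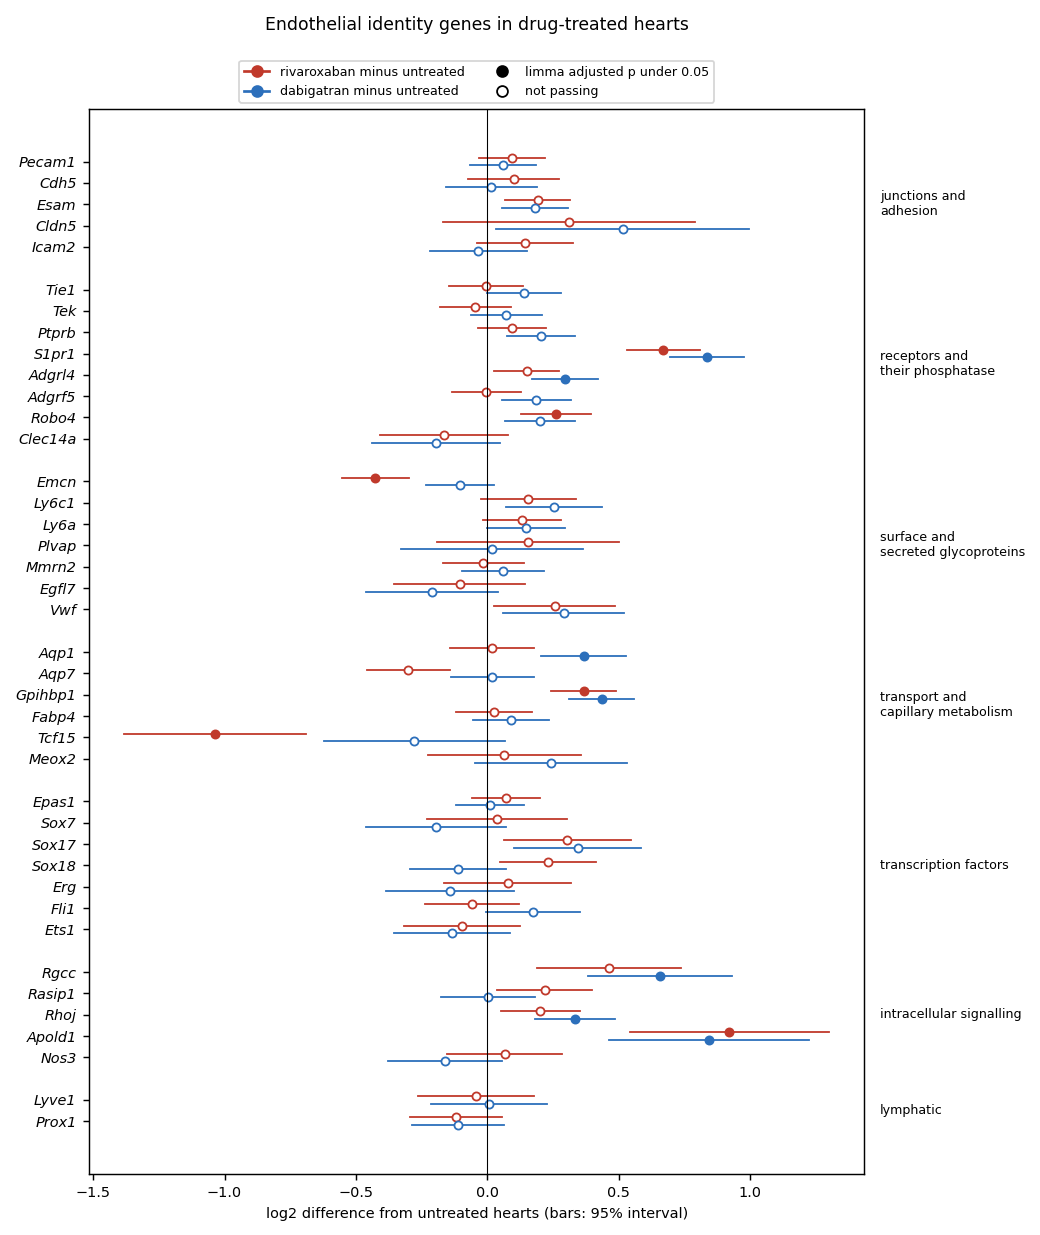
Log2 difference of each of the 40 members from untreated hearts (x axis), by role (y axis), for rivaroxaban (red) and dabigatran (blue). Points are limma estimates from 2 libraries per group, bars are 95% intervals not adjusted for the number of genes, and filled points passed a limma adjusted p of 0.05. S1pr1, Gpihbp1 and Apold1 are filled on the right for both drugs, and Tcf15 lies farthest to the left with rivaroxaban (-1.04).

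Of the 8 genes listed as receptors and their phosphatase, 2 rose with rivaroxaban and 2 with dabigatran. S1pr1 encodes the receptor for sphingosine 1-phosphate that tightens the endothelial barrier, and lies on chromosome 3 from 115710433 to 115715072 (ENSMUSG00000045092, GENCODE M21 on GRCm38). Its level was 6.73 and 6.87 in rivaroxaban hearts, 6.94 and 6.99 in dabigatran hearts, and 6.17 and 6.10 in untreated hearts. All 4 treated libraries lay above both untreated ones, and the gap was several times the distance between replicates. The rise was 1.59-fold with rivaroxaban (log2 0.67, SE 0.06, limma adjusted p = 0.000594) and 1.79-fold with dabigatran (log2 0.84, SE 0.06, limma adjusted p = 0.000125). S1pr1 stayed called for both drugs with each of the 6 libraries left out in turn (limma adjusted p up to 0.0123 and 0.00203). Without the mean-variance trend in limma it did not pass (limma adjusted p = 0.0682 and 0.113), and neither did any other member.

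Robo4, a roundabout receptor that stabilises vessels, lies on chromosome 9 from 37401897 to 37415115. It stood at 6.16 and 6.26 in rivaroxaban hearts, 6.13 and 6.18 in dabigatran hearts, and 5.96 and 5.95 in untreated hearts. The treated libraries were again all higher, by less than for S1pr1. The rise passed narrowly with rivaroxaban (log2 0.26, SE 0.06, limma adjusted p = 0.0488); it was lost with median centring (limma adjusted p = 0.0673) and without any 1 of the 4 libraries compared (limma adjusted p = 0.101 and 0.417 without rivaroxaban replicates 14 and 15, 0.165 and 0.13 without untreated replicates 8 and 9). With dabigatran the log2 difference was 0.20 (SE 0.06, limma adjusted p = 0.138). Adgrl4, an adhesion G protein-coupled receptor of endothelium (chromosome 3, 151437887 to 151545086), stood at 6.38 and 6.43 in rivaroxaban hearts, 6.53 and 6.57 in dabigatran hearts, and 6.22 and 6.28 in untreated hearts. Its libraries ran in 3 separate steps, highest with dabigatran. The rise with dabigatran was 1.23-fold (log2 0.30, SE 0.06, limma adjusted p = 0.0285), and it was lost without any 1 of the 6 libraries (limma adjusted p from 0.0531 to 0.144). With rivaroxaban Adgrl4 had a log2 difference of 0.15 (limma adjusted p = 0.202).

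Tek encodes TIE2, the angiopoietin receptor, and Tie1 its partner receptor. Tek stood at 6.11 and 6.08 in rivaroxaban hearts, 6.16 and 6.27 in dabigatran hearts, and 6.11 and 6.17 in untreated hearts. Tie1 stood at 7.48 and 7.36, 7.55 and 7.58, and 7.35 and 7.50 in the same order of groups. For both genes the rivaroxaban libraries lay below the dabigatran ones and within or just under the untreated range. Ptprb, the phosphatase that acts on TIE2, had log2 differences of 0.10 with rivaroxaban and 0.21 with dabigatran (limma adjusted p = 0.431 and 0.121). Adgrf5, another adhesion receptor, had -0.003 and 0.19, and Clec14a, a C-type lectin receptor, -0.16 and -0.19, none of them passing.

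Of the 5 junction and adhesion genes in the table, none passed for either drug, and their median log2 difference was 0.14 with rivaroxaban and 0.06 with dabigatran. Cdh5, which encodes VE-cadherin, the cadherin of endothelial adherens junctions, stood at 8.43 and 8.24 in rivaroxaban hearts, 8.16 and 8.34 in dabigatran hearts, and 8.16 and 8.30 in untreated hearts. Pecam1 (CD31), an adhesion molecule of endothelium, platelets and leukocytes, stood at 7.92 and 7.81, 7.78 and 7.88, and 7.76 and 7.78 in the same order. The log2 differences were 0.10 and 0.02 for Cdh5 and 0.09 and 0.06 for Pecam1, with rivaroxaban and dabigatran. The 95% intervals ran from -0.07 to 0.27 (rivaroxaban) and -0.16 to 0.19 (dabigatran) for Cdh5, and from -0.03 to 0.22 and -0.07 to 0.19 for Pecam1. Icam2, an adhesion molecule that leukocytes and platelets also carry, stood at 5.30 and 5.13 in rivaroxaban hearts, 5.04 and 5.04 in dabigatran hearts, and 5.16 and 4.99 in untreated hearts, each drug overlapping the untreated range. Esam, another junction adhesion molecule, had log2 differences of 0.19 and 0.18 that did not pass (limma adjusted p = 0.11 and 0.154). Cldn5, the main claudin of endothelial tight junctions, had 0.31 and 0.52 (limma adjusted p = 0.489 and 0.302), with dabigatran replicates at 4.29 and 5.17. With dabigatran it was called without dabigatran replicate 10 (log2 0.95), and its log2 difference was 0.08 without dabigatran replicate 12.

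Of 7 surface and secreted glycoproteins, Emcn fell with rivaroxaban and none passed with dabigatran. Emcn encodes endomucin, a sialomucin of capillary and venous endothelium, and lies on chromosome 3 from 137341067 to 137432185. Its level was 5.60 and 5.57 in rivaroxaban hearts, 5.91 and 5.91 in dabigatran hearts, and 6.02 and 6.00 in untreated hearts. The 3 groups did not overlap, and replicates lay closer together than any 2 groups. Emcn fell to 0.745 of the untreated level with rivaroxaban (log2 -0.43, SE 0.06, limma adjusted p = 0.00336; limma adjusted p = 0.069 without rivaroxaban replicate 15). With dabigatran the log2 difference was -0.10 (95% interval -0.23 to 0.02, limma adjusted p = 0.446).

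Ly6a (Sca-1) and Ly6c1 encode anchored surface proteins of mouse endothelium that some blood cells also carry. Both belong to a family of like genes on chromosome 15, and reads of near-identical members can be split between them. Ly6c1 stood at 7.17 and 7.37 in rivaroxaban hearts, 7.47 and 7.26 in dabigatran hearts, and 7.16 and 7.07 in untreated hearts. Ly6a stood at 6.85 and 6.98, 6.98 and 6.88, and 6.85 and 6.72 in the same order. For both the treated libraries lay just above the untreated ones, and no difference passed (limma adjusted p from 0.169 to 0.365). Vwf, the clotting protein stored by endothelium and platelets, stood at 5.93 and 5.95 in rivaroxaban hearts, 5.87 and 6.09 in dabigatran hearts, and 5.52 and 5.86 in untreated hearts. Its untreated replicates were the widest apart, and its log2 differences of 0.26 and 0.29 did not pass (limma adjusted p = 0.243 and 0.218). Platelet markers had summed levels of 17.6 to 20.8 CPM with rivaroxaban, 22.1 to 23.1 CPM with dabigatran and 17.7 to 26.2 CPM in untreated hearts (5 of 5 in the table). Pf4 had the highest level of them in every library. The 4 tested had log2 differences from -0.57 to 0.06 with rivaroxaban (1 above 0) and from -0.29 to 0.62 with dabigatran (3 above 0), none passing. The part of platelets in Vwf was not tested. Plvap, which forms the diaphragms of endothelial pores, Mmrn2, a matrix protein of endothelium, and Egfl7, a secreted protein whose gene hosts a microRNA, had log2 differences between -0.21 and 0.16, and none passed.

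Of the 6 genes of transport and capillary metabolism in the table, Gpihbp1 rose with both drugs, Aqp1 rose with dabigatran and Tcf15 fell with rivaroxaban. Gpihbp1 encodes the protein that carries lipoprotein lipase to the capillary lumen and holds it there (chromosome 15, 75596628 to 75599481). It stood at 6.53 and 6.59 in rivaroxaban hearts, 6.66 and 6.60 in dabigatran hearts, and 6.21 and 6.17 in untreated hearts. The treated libraries were all higher, 1.29-fold with rivaroxaban (log2 0.37, SE 0.06, limma adjusted p = 0.00731) and 1.35-fold with dabigatran (log2 0.44, SE 0.06, limma adjusted p = 0.00465). The rise with dabigatran stayed called with each library left out (limma adjusted p up to 0.028); that with rivaroxaban was lost without rivaroxaban replicate 15 (limma adjusted p = 0.121). Lpl, the lipase itself, did not pass (log2 -0.03 with rivaroxaban and 0.14 with dabigatran).

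Tcf15 encodes a helix-loop-helix transcription factor that, with Meox2, drives fatty acid uptake genes in mouse heart endothelium. It lies on chromosome 2 from 152143561 to 152149097. It stood at 4.72 and 4.56 in rivaroxaban hearts, 5.51 and 5.28 in dabigatran hearts, and 5.38 and 5.97 in untreated hearts. Both rivaroxaban libraries lay below the other 4, while dabigatran and untreated libraries overlapped. Tcf15 fell to 0.488 of the untreated level with rivaroxaban (log2 -1.04, SE 0.16, limma adjusted p = 0.0065), with limma adjusted p = 0.084 without rivaroxaban replicate 15. Leaving out 1 library moved that difference between -1.33 and -0.74, and the untreated replicates lay 0.597 apart. With dabigatran it was -0.28 (95% interval -0.62 to 0.07, limma adjusted p = 0.451). Meox2, its partner, had log2 differences of 0.07 and 0.24 that did not pass. Fabp4, a fatty acid binding protein of capillary endothelium and adipocytes, stood at 9.06 and 9.08 in rivaroxaban hearts, 9.17 and 9.10 in dabigatran hearts, and 9.15 and 8.94 in untreated hearts. Each drug overlapped the untreated range, and both rivaroxaban libraries lay below both dabigatran libraries.

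Aqp1, the water channel of capillary endothelium and red cells (chromosome 6, 55336432 to 55348555), stood at 8.92 and 9.03 in rivaroxaban hearts, 9.26 and 9.38 in dabigatran hearts, and 8.85 and 9.06 in untreated hearts. Both dabigatran libraries were higher than the other 4. Aqp1 rose 1.29-fold with dabigatran (log2 0.37, SE 0.07, limma adjusted p = 0.0362) and stayed called with 1 of the 6 libraries left out, untreated replicate 9; without the others the limma adjusted p ran from 0.0509 to 0.18. With rivaroxaban the log2 difference was 0.02. Of 6 red cell markers, 1, the anion exchanger Slc4a1, was in the table, at 1.29 to 1.88 CPM with rivaroxaban, 1.76 to 2.60 CPM with dabigatran and 0.277 to 0.868 CPM in untreated hearts. It rose with dabigatran (log2 2.12, limma adjusted p = 0.0487) and did not pass with rivaroxaban (log2 1.67, limma adjusted p = 0.0982), and its part in Aqp1 was not tested. Aqp7, a channel for water and glycerol in capillaries and adipocytes, stood at 4.9997 and 5.0618 in rivaroxaban hearts, 5.28 and 5.42 in dabigatran hearts, and 5.34 and 5.32 in untreated hearts. Its level with rivaroxaban was below all other libraries, and the log2 difference from untreated of -0.30 just missed the threshold (limma adjusted p = 0.0562). It was called without either dabigatran replicate, with only the 2 groups compared and with median centring. Adipocyte markers were low, with 7 of 8 in the table and summed levels of 1.61 to 4.09 CPM with rivaroxaban, 2.78 to 3.22 CPM with dabigatran and 2.13 to 3.02 CPM in untreated hearts. Summed levels, here and for the other lists, keep a small count added to every gene (0.0609 CPM each), which weighs most on low lists.

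**Figure D2:**
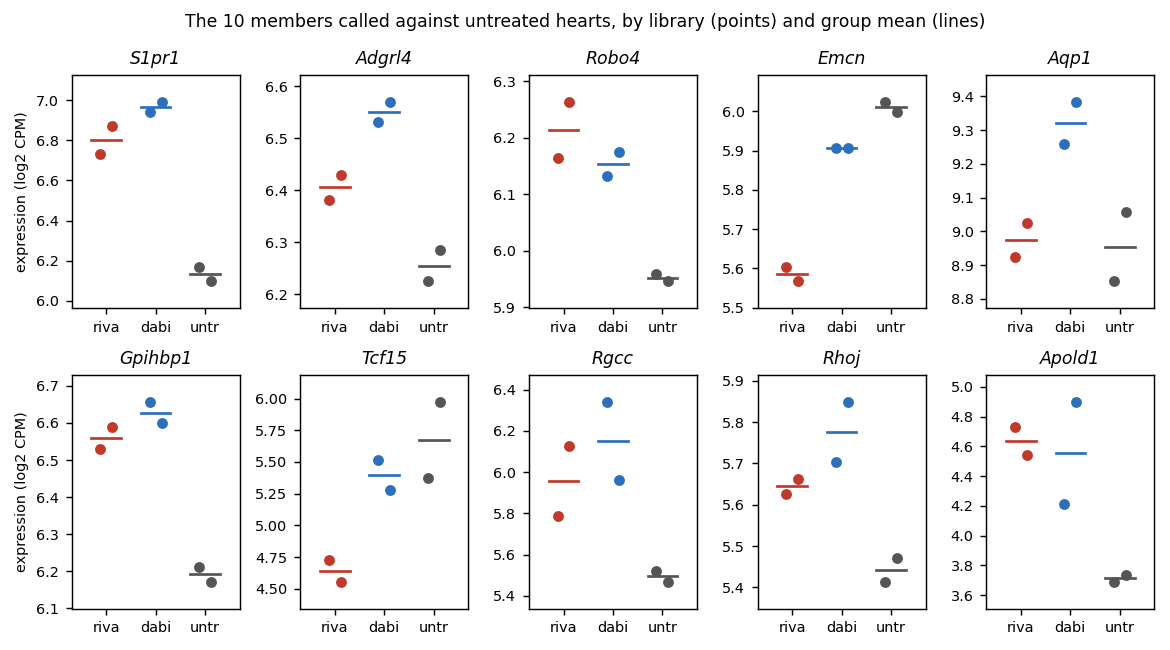
Log2 CPM (y axes, each with its own range, not starting at 0) of the 10 members called for at least 1 drug, in rivaroxaban (riva), dabigatran (dabi) and untreated (untr) libraries. Points are libraries and lines are means of 2. All 4 treated libraries of S1pr1 lie above both untreated ones, and both rivaroxaban libraries of Tcf15 and of Emcn lie below the rest.

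Of 5 genes of intracellular signalling, Apold1 rose with both drugs, and Rgcc and Rhoj with dabigatran. Apold1 encodes an endothelial apolipoprotein L domain protein that is switched on early in response to stimuli (chromosome 6, 134981718 to 134986836). It stood at 4.73 and 4.54 in rivaroxaban hearts, 4.21 and 4.90 in dabigatran hearts, and 3.69 and 3.74 in untreated hearts. Every treated library was higher, and the dabigatran replicates lay farthest apart. The rise was 1.89-fold with rivaroxaban (log2 0.92, SE 0.17, limma adjusted p = 0.0203) and 1.79-fold with dabigatran (log2 0.84, SE 0.17, limma adjusted p = 0.0369). The rivaroxaban call was lost without any 1 of the 4 libraries compared (limma adjusted p from 0.0779 to 0.123). The dabigatran call was lost without any 1 library but dabigatran replicate 10 (limma adjusted p from 0.0509 to 0.173), and its log2 difference was 0.50 without dabigatran replicate 12 and 1.19 without replicate 10.

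Rgcc, a regulator of the cell cycle made by endothelium (chromosome 14, 79288756 to 79301645), stood at 5.79 and 6.13 in rivaroxaban hearts, 6.34 and 5.96 in dabigatran hearts, and 5.52 and 5.47 in untreated hearts. Treated replicates spread more widely than untreated ones and were all above them. The log2 difference was 0.46 with rivaroxaban (SE 0.12, limma adjusted p = 0.0832), called only without either dabigatran replicate or with only the 2 groups compared, and 0.66 with dabigatran (SE 0.12, limma adjusted p = 0.0271). The dabigatran call was lost without dabigatran replicate 10 (log2 0.47, limma adjusted p = 0.128) and without untreated replicates 8 and 9 (limma adjusted p = 0.116 and 0.099). Rhoj, a small GTPase of endothelium (chromosome 12, 75308322 to 75401456), stood at 5.63 and 5.66 in rivaroxaban hearts, 5.70 and 5.85 in dabigatran hearts, and 5.41 and 5.47 in untreated hearts. It rose 1.26-fold with dabigatran (log2 0.33, SE 0.07, limma adjusted p = 0.0376), a call that remained without dabigatran replicate 10 and was lost without any other library (limma adjusted p from 0.0665 to 0.183). With rivaroxaban its log2 difference was 0.20 (limma adjusted p = 0.161). Nos3, the endothelial nitric oxide synthase, stood at 3.77 and 3.60 in rivaroxaban hearts, 3.44 and 3.48 in dabigatran hearts, and 3.64 and 3.60 in untreated hearts, and did not pass. Rasip1, which acts in lumen formation, had log2 differences of 0.22 and 0.002 that did not pass. In the annotation Nos3, Rasip1, Egfl7, Sox17 and Prox1 overlap other genes, and whether the counting used strand is not given, so their reads are less certain.

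None of the 7 transcription factors passed for either drug. Their log2 differences lay between -0.10 and 0.31 with rivaroxaban and between -0.19 and 0.34 with dabigatran. Erg, the ETS factor most closely tied to endothelial identity, stood at 5.74 and 5.59 in rivaroxaban hearts, 5.25 and 5.64 in dabigatran hearts, and 5.58 and 5.59 in untreated hearts. Fli1, its close relative, which blood cells also make, stood at 5.30 and 5.10, 5.37 and 5.49, and 5.27 and 5.25 in the same order. Ets1, which lymphocytes also make, stood at 6.41 and 6.12, 6.09 and 6.36, and 6.35 and 6.37. For all 3 the untreated replicates lay close together and the treated ones spread more widely. Lymphocyte markers summed to 3.82 to 3.91 CPM with rivaroxaban, 2.82 to 3.93 CPM with dabigatran and 3.72 to 3.74 CPM in untreated hearts (4 of 6 in the table). Of the SOXF factors, which specify vessels, Sox17 had log2 differences of 0.31 and 0.34 (limma adjusted p = 0.184 and 0.163), Sox18 of 0.23 and -0.11, and Sox7 of 0.04 and -0.19. Epas1, the hypoxia-inducible factor HIF-2 alpha, had 0.07 and 0.01.

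The lymphatic genes did not pass either. Lyve1, a hyaluronan receptor of lymphatic endothelium that some macrophages carry, stood at 5.01 and 4.98 in rivaroxaban hearts, 5.09 and 4.99 in dabigatran hearts, and 5.20 and 4.87 in untreated hearts. Prox1, the factor that sets lymphatic identity and is also made by cardiomyocytes, stood at 6.24 and 6.13, 6.08 and 6.31, and 6.25 and 6.36 in the same order. Treated and untreated levels of Lyve1 overlapped, and those of Prox1 overlapped for dabigatran. Of 4 other lymphatic markers tested, none passed, with median log2 differences of -0.05 and -0.11. Pdpn was the lowest, at -0.39 with rivaroxaban and -0.41 with dabigatran, and 1 marker was above 0 with each drug. Which cells made Pdpn in these hearts was not tested. Flt4, among these 4, is also counted below with the VEGF receptors.

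Both rivaroxaban libraries lay above both untreated ones in 18 of 40 members (45%, against 26.1% of all tested genes) and below in 6 (15%, against 24.5%). Both dabigatran libraries lay above in 18 (45%, against 22.8%) and below in 4 (10%, against 20.8%). At an unadjusted p under 0.05, 15 members differed with rivaroxaban (37.5%, against 17.2%) and 16 with dabigatran (40%, against 14.7%). In 14 members all 4 treated libraries lay above both untreated ones (35%, against 14.7% of all tested genes), and in 2, Emcn and Egfl7, all 4 lay below (5%, against 11.7%). The 14 included S1pr1, Gpihbp1, Apold1, Rgcc and Robo4, and also Pecam1, Esam, Vwf and Sox17, which did not pass. With rivaroxaban 27 of 40 log2 differences were above 0 (67.5%, against 51.5% of all tested genes) and with dabigatran 29 of 40 (72.5%, against 50.8%). The shift was small: taken as the median over members of the deviation from the 6-library mean, it was 0.05 and 0.02 in rivaroxaban libraries, 0.04 and 0.08 in dabigatran libraries, and -0.07 and -0.05 in untreated libraries. The members were chosen with earlier results of these data known, so these shares describe them and were not tested.

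Other cell type lists also varied between these libraries. Over 6 cardiomyocyte markers the median deviation was -0.06 and -0.02 with rivaroxaban, 0.03 and 0.004 with dabigatran, and 0.03 and 0.03 in untreated hearts. Their summed level was 74250 to 75690 CPM with rivaroxaban, 77260 to 77310 CPM with dabigatran and 78440 to 79130 CPM in untreated hearts. None of the 6 passed for either drug. Over 10 markers of pericytes and smooth muscle, the cells that wrap vessels, the summed level was 1782 to 1804 CPM with rivaroxaban, 1808 to 1810 CPM with dabigatran and 1781 to 1783 CPM in untreated hearts. All 6 mesothelium markers, from the cell layer that covers the heart, fell with rivaroxaban and 3 fell with dabigatran, and their summed level was 33.7 to 42.4 CPM, 45.8 to 47.3 CPM and 74.4 to 78.2 CPM in rivaroxaban, dabigatran and untreated hearts. Over 9 macrophage markers it was 554.2 to 646.9 CPM, 589.3 to 621.9 CPM and 546.3 to 596.7 CPM in the same order. Fibroblast markers ran from 1414 to 1605 CPM with rivaroxaban, 1331 to 1460 CPM with dabigatran and 1389 to 1482 CPM in untreated hearts. Among these pericyte, smooth muscle, macrophage and fibroblast markers, Myh11, a smooth muscle myosin, fell and Cd163, a macrophage scavenger receptor, rose with rivaroxaban (log2 -0.34 and 0.55, limma adjusted p = 0.0416 and 0.0432), and no other marker passed. No listed marker in the table was at 0 in every library. The part of these cell types in the members' differences was not tested.

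**Figure D3:**
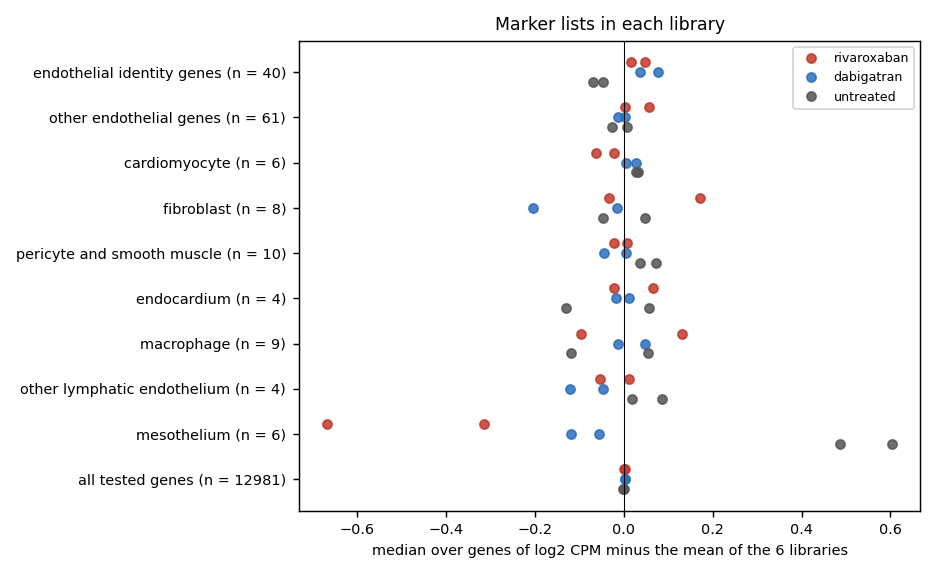
Median over each list's genes of log2 CPM minus the 6-library mean (x axis), for the 40 endothelial identity genes, other endothelial genes, other cell types and all tested genes (y axis). Points are libraries, coloured by group. Untreated libraries lie at -0.07 and -0.05 for the endothelial identity genes and at 0.60 and 0.49 for the mesothelium list.

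Of 68 further genes that are not members, listed as endothelial genes or their partners, 61 were tested. Not all are particular to endothelium. Of this list, Lpl and Cd36 averaged 561.3 and 557.9 RPKM, above every member, and which cells made them was not tested. With rivaroxaban 4 of the 61 rose and 1 fell, where 1.47% and 0.986% of all tested genes did. With dabigatran 5 of the 61 rose and 1 fell, where 1.38% and 0.501% did. Log2 differences were above 0 for 36 of 61 with rivaroxaban and 34 of 61 with dabigatran, against 51.5% and 50.8% of all tested genes. The median log2 differences of this list were 0.04 and 0.02. Among 11 other endothelial transcription factors, Klf2 and Klf4, which laminar flow induces in endothelium, and Gata2, a factor of endothelium and blood cells, rose with both drugs. Klf2 stood at 7.26 and 7.29 in rivaroxaban hearts, 7.09 and 7.19 in dabigatran hearts, and 6.36 and 6.20 in untreated hearts (log2 0.997 and 0.86, limma adjusted p = 5.87e-05 and 0.000125). Klf4 had log2 differences of 1.09 and 0.84 (limma adjusted p = 5.87e-05 and 0.000333). Gata2 stood at 4.96 and 4.97, 5.06 and 4.86, and 4.44 and 4.63 in the same order (log2 0.43 and 0.42, limma adjusted p = 0.0353 and 0.0437). Mef2c, a factor of muscle and endothelium, fell with rivaroxaban (log2 -0.29, limma adjusted p = 0.0271). Of 8 VEGF and TGF-beta family receptors, Eng, a TGF-beta co-receptor, rose with both drugs (log2 0.26 and 0.25, limma adjusted p = 0.0278 and 0.0397). Flt1, a VEGF receptor, rose with dabigatran (log2 0.29, limma adjusted p = 0.0376). Kdr, the main VEGF receptor, had the lowest log2 difference of the 8 with each drug, -0.01 and -0.07. Of the 8, 7 were above 0 with rivaroxaban and 4 with dabigatran (median log2 differences 0.11 and -0.01). Of 18 other pan-endothelial and capillary genes, Myct1 fell with dabigatran (log2 -0.33, limma adjusted p = 0.0378). None of 14 angiopoietin, sphingosine 1-phosphate and junction partners and none of 10 activated endothelium genes passed. Of the 10 activated endothelium genes, 6 had log2 differences above 0 with rivaroxaban and 7 with dabigatran (medians 0.10 and 0.06). The leukocyte adhesion receptor Vcam1, among these 10, had -0.08 and -0.27.

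Between the drugs no member passed, where 0.077% of all tested genes did (10 genes, all lower with rivaroxaban). At an unadjusted p under 0.05, 12 members differed (30%, against 8.43% of all tested genes), and limma voom on whole reads also called none. In 14 members both rivaroxaban libraries lay below both dabigatran libraries (35%, against 20.4%), and in 4 above (10%, against 19.3%). The log2 difference was above 0 in 16 of 40 members (40%, against 50.4%). All 6 transport and metabolism genes were lower with rivaroxaban, with log2 differences, rivaroxaban minus dabigatran, from -0.76 to -0.07. Also lower were 6 of the 8 genes listed as receptors and their phosphatase, 5 of 7 surface and secreted glycoproteins and the 2 lymphatic genes. Higher with rivaroxaban were 4 of 5 junction and adhesion genes, 5 of 7 transcription factors and 3 of 5 intracellular signalling genes. These splits by role were not tested. Emcn had the lowest p, with a log2 difference of -0.32 (95% interval -0.45 to -0.19, limma adjusted p = 0.103). Tcf15 had -0.76 (95% interval -1.10 to -0.41, limma adjusted p = 0.172), and it passed without untreated replicate 8 or 9 (limma adjusted p = 0.0342 and 0.0361) and with only the 2 groups compared (limma adjusted p = 0.0379). Aqp1 had -0.35 (limma adjusted p = 0.172) and Aqp7 -0.32 (limma adjusted p = 0.219).

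The 4 members with both rivaroxaban libraries above both dabigatran libraries were Sox18, Icam2, Rasip1 and Nos3. Sox18 stood at 6.54 and 6.49 in rivaroxaban hearts and 6.28 and 6.06 in dabigatran hearts, against 6.37 and 6.19 in untreated hearts. The difference between the drugs was 0.34 (95% interval 0.16 to 0.53, limma adjusted p = 0.241). For S1pr1 and Gpihbp1 the drugs differed by -0.17 (95% interval -0.31 to -0.03) and -0.07 (95% interval -0.19 to 0.06), and for Apold1 by 0.08 (95% interval -0.30 to 0.46), none of them passing. A difference that missed the threshold does not show that the drugs acted alike, and the doses were not matched.

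**Figure D4:**
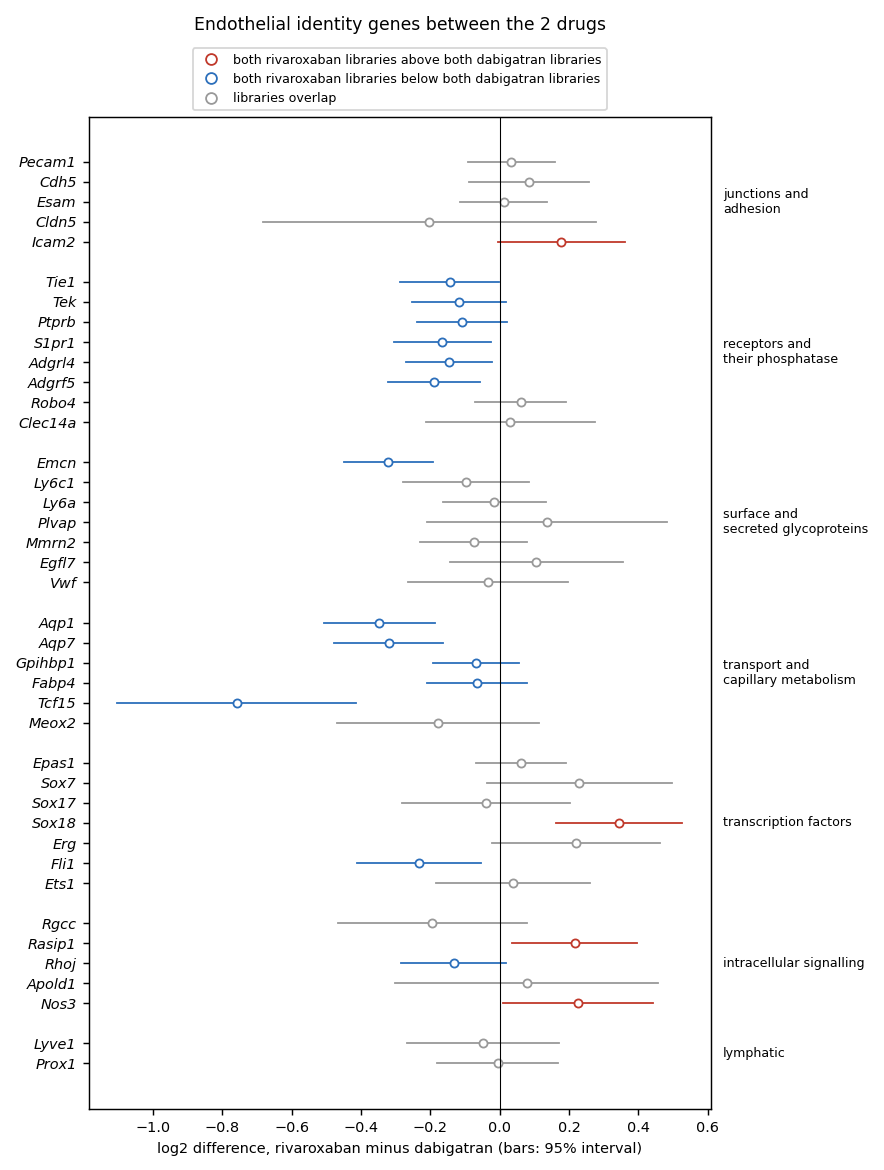
Log2 difference of each of the 40 members between rivaroxaban and dabigatran hearts (x axis, rivaroxaban minus dabigatran), by role (y axis). Points are limma estimates from 2 libraries per group, bars are 95% intervals not adjusted for the number of genes, and open points did not pass. Tcf15 (-0.76) lies farthest to the left, and Sox18 (0.34) farthest to the right.

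The counts rest on few libraries. Without rivaroxaban replicate 15, 1 member (S1pr1) was called with rivaroxaban in place of 6. Without either dabigatran replicate, or with only rivaroxaban and untreated libraries compared, 8 were called, Rgcc and Aqp7 among them. With dabigatran, 2 to 5 members were called in place of 7 with 1 library left out: 2 without untreated replicate 8, 5 without dabigatran replicate 10, and 3 without dabigatran replicate 12, untreated replicate 9 or either rivaroxaban replicate. A fit of only dabigatran and untreated libraries called 3 (S1pr1, Gpihbp1 and Rgcc), with limma adjusted p = 0.0502 for Aqp1, 0.0507 for Apold1, 0.053 for Adgrl4 and 0.0658 for Rhoj.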

How the data were processed

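Poly-A RNA of 6 heart samples was sequenced with a directional kit, per the labels' protocols. Per the submitters' processing notes, mm10 was the build, and STAR, Trim Galore, edgeR, FastQC and bcl2fastq were used, without versions. Neither read counter nor annotation nor strand setting is given in the sources used here. By its file name, the deposited table holds log2 CPM with the authors' TMM scaling. A small count had been added: all libraries share 1 lowest value, -4.04. This draws low genes together. Subtracting that floor (0.0609 CPM) gave whole reads for 100% of the values up to 200 reads per library, within 0.02 reads, and hence the depths. Counts above that range rest on the same step and are estimates. Levels per length have the floor removed, and summed levels do not. Intervals cover only the spread between libraries, and reads carry no molecular identifiers.

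Symbols were matched exactly. Genes with a mean of at least 0 log2 CPM (12981) were fitted with limma 3.58.1 in R 4.3.3: 3 group means over all 6 libraries, eBayes with a mean-variance trend, 3 residual and 7.75 prior degrees of freedom, two-sided tests, Benjamini-Hochberg adjustment over all tested genes within each comparison, threshold 0.05. The fit was also run on simulated data, whose planted changes were larger than those of most called members. That run says nothing of smaller changes. Levels per length used all exons in GENCODE M21. Members and lists were chosen with earlier results of these data known. Values in every library are given for called members, the 5 lowest p per comparison, defining members and members with another known cell source. Alternatives were another filter or none, no trend, log2(CPM + 1), median centring, only the 2 groups compared and each library left out; limma voom on whole reads was added after seeing the data. Called genes of other lists are also named. Cav1 and Ecscr were not analysed here.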

Additional observations from a re-analysis of the deposited data

How the results depend on the processing

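The counts of members and of genes called depended most on the mean-variance trend and on single libraries. Without the trend no gene passed in any comparison; the members called were 0 with rivaroxaban and 0 with dabigatran, with 10 and 11 members at an unadjusted p under 0.05, and over all genes 1938 had such a p with rivaroxaban, 1728 with dabigatran and 984 between the drugs. With only the 2 groups compared, 8 members (Rgcc and Aqp7 added) and 411 genes were called with rivaroxaban, 3 members and 169 genes with dabigatran, and 1 member, Tcf15, and 6 genes between the drugs, in place of 6 and 319, 7 and 244, and 0 and 10. With a mean of at least 2 log2 CPM, 1 gene was called between the drugs. With 1 library left out, members called ran from 1 to 8 with rivaroxaban, 2 to 5 with dabigatran and 0 to 1 between the drugs, and all genes called ran from 61 to 410, 73 to 270 and 0 to 20. No called member, and none of the 5 members with the lowest p between the drugs, changed direction under any alternative run. Over these members and alternatives, a call was lost 19 times with rivaroxaban and 35 times with dabigatran, and gained 3 times between the drugs. The cause was not tested. Robo4 with rivaroxaban was also lost with median centring and with the higher filter (limma adjusted p = 0.0673 and 0.0517). Without a filter, with log2(CPM + 1), with median centring and with limma voom on whole reads, 6, 7 and 0 members were called; with median centring Aqp7 stood in place of Robo4. The planned count tests were not run, since the table holds log2 values; limma voom took their place. Where 1 library was left out, the lone library of its group was assumed to vary like the other groups. No paired analysis was possible because the groups share no replicate numbers.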

Other observations

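Replicates of 1 group lay far apart for some members. Cldn5 stood at 4.29 in dabigatran replicate 10 and 5.17 in replicate 12, the widest gap of any member in that group. In rivaroxaban hearts the widest gap belonged to Meox2 (5.07 and 4.69) and in untreated hearts to Tcf15 (5.38 and 5.97). The median absolute gap between replicates was 0.118 over the members and 0.0832 over all tested genes with rivaroxaban, 0.136 and 0.0972 with dabigatran, and 0.0766 and 0.0984 in untreated hearts. In the dabigatran pair 26 of 40 members were higher in replicate 12. In the gene ontology terms of the deposited table, angiogenesis is attached to 16 of the 40 members (40%) and to 1.40% of annotated genes. Vasculogenesis is attached to 5 members: Rasip1, Sox17, Sox18, Tek and Tie1. Of the members called, S1pr1, Robo4, Emcn, Rhoj and Apold1 carry the angiogenesis term, while Gpihbp1, Tcf15, Rgcc, Aqp1 and Adgrl4 do not.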
